A study of Mus musculus with 26 samples.

Results

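Beta-catenin, encoded by Ctnnb1, carries the canonical Wnt signal from the membrane to the nucleus. Without a Wnt ligand it is held by the scaffolds Axin and Apc, phosphorylated by casein kinase 1 and Gsk3, tagged by an ubiquitin ligase and destroyed. With a ligand, Dishevelled takes the complex apart, beta-catenin enters the nucleus, binds TCF factors together with coactivators, and switches on target genes, several of which feed back to damp the pathway. In the brain the pathway is known for its part in neural patterning, progenitor division and synapse formation.

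The 51 genes described here are components and targets of this pathway, taken by name from each count table of 55487 genes. They comprised 18 genes of the destruction complex and its regulators, 14 nuclear cofactors and 19 target genes. All 51 had enough counts to be tested and are among the 18050 genes that passed the low-count filter. They were followed in the frontal cortex of mice carrying a frameshift in Adnp on a single allele (HET, labelled mutant) and of wild-type mice (WT), adolescent littermates per the series' design text. RNA was sequenced from 7 HET and 7 WT animals, and ATAC-seq, which reads open chromatin, is present as a single peak list per genotype. The labels name no sex, strain, exact age or batch.

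HET libraries held between 33280785 and 47079906 counts, and WT libraries between 32814841 and 48291175. Adnp itself, the gene that carries the frameshift, averaged 6.90 ± 1.30 CPM in HET, against 6.55 ± 0.875 CPM in WT (SD over 7 libraries of each genotype; CPM is the count scaled to library size), with an edgeR adjusted p of 0.772, and a frameshift need not lower the level of its mRNA. The tissue label was checked against summed markers of excitatory neurons, which were between 975 and 6577 CPM in HET and between 2869 and 8575 CPM in WT. The 2 lowest libraries were HET 4 and HET 1, and the lowest of WT was WT 4. Markers of thalamic neurons summed to 274 to 1807 CPM in HET and 227 to 731 CPM in WT, and those of striatal neurons to 170 to 2364 CPM in HET and 183 to 1761 CPM in WT. Of the 61 marker genes in 10 lists none passed the edgeR test. By unadjusted p under 0.05, 2 were higher and 9 lower, beside 11.8% higher and 10.4% lower of all genes tested. DESeq2 called 1 as lower, beside 3.6% of all the genes it tested. No marker gene was at 0 in all libraries. HET 1 to HET 4 are labelled as total RNA, whereas HET 5 to HET 7 and all WT are labelled as polyA RNA, under the same protocol text. In bulk tissue, fewer cells of a type and less RNA per cell cannot be told apart, and this holds for each RNA value below.

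Of the 51 genes, 1 was higher in HET at an adjusted p under 0.05, none was lower and 50 did not pass. The gene that passed was Tnks, a tankyrase that marks Axin for destruction. Over all genes tested, 0.97% passed in either direction, 0.587% higher and 0.382% lower in HET. By unadjusted p under 0.05, 8 of the 51 were higher and 7 lower, or 29.4% of them, beside 22.2% of all genes tested (11.8% higher and 10.4% lower). The groups did not overlap for 1 of the 51, again Tnks, and for 0.715% of all genes tested. The median log2 fold change of HET over WT was 0.04 for the 51 genes and 0.02 for all genes tested, with 29 of the 51 above 0 and 22 below; 53.3% of all genes tested were above 0. For 34 of the 51 the log2 fold change was under 0.2 in size. DESeq2 called 5 of the 51, namely Tnks, Nkd2 and Cd44 as higher and Mycn and Prickle1 as lower, beside 7.42% of the 18919 genes it tested (3.82% higher and 3.6% lower). The call for Tnks was lost when any of 9 of the 14 libraries was left out, and no gene of the 51 passed with tissue marker means in the fit or without the 2 libraries lowest in excitatory markers.

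**Figure D1:**
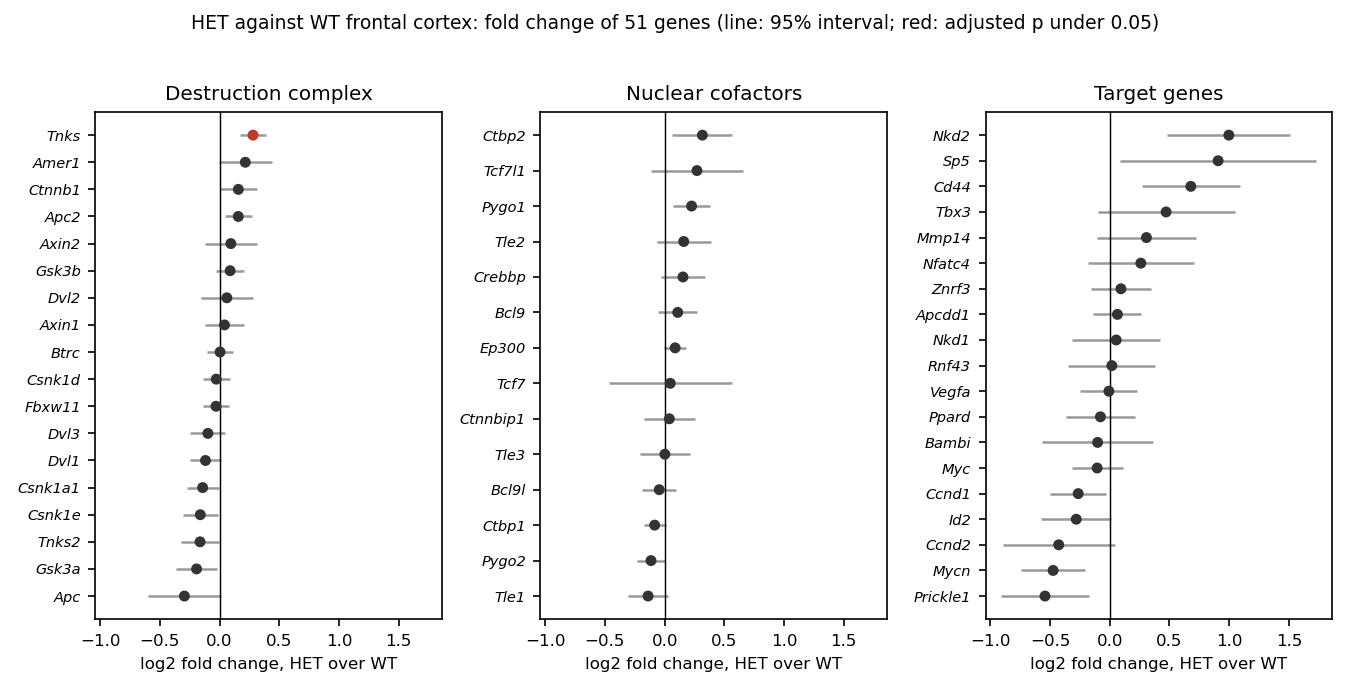
Log2 fold change of HET over WT (x axis) for each of the 51 genes, by group, with its 95% interval as a line (7 libraries per genotype, edgeR). Tnks, in red, is the gene that passed the test; the target genes spread from -0.54 for Prickle1 to 1.00 for Nkd2, and most destruction complex genes lie near 0.

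Levels differed far more between genes than between genotypes. To compare genes with each other, levels were divided by exon length, and these values are given as CPM per kb of exon. Ctnnb1 was the most abundant of the 51, with 75.4 ± 7.63 CPM per kb in HET and 67.6 ± 5.55 CPM per kb in WT. The lowest gene of the destruction complex group was Amer1, a membrane-linked partner of Apc, with 1.48 ± 0.265 CPM per kb in HET and 1.27 ± 0.0862 CPM per kb in WT. Among nuclear cofactors the corepressor Ctbp1 was highest, with 47.2 ± 1.54 CPM per kb in HET and 50.01 ± 1.95 CPM per kb in WT. The TCF factor Tcf7l1 was the lowest cofactor, with 1.15 ± 0.167 CPM per kb in HET and 0.949 ± 0.301 CPM per kb in WT. Among target genes Id2, an inhibitor of helix-loop-helix transcription factors, was highest, at 36.5 ± 9.02 CPM per kb in HET and 44.4 ± 6.04 CPM per kb in WT. Sp5, a zinc-finger target of beta-catenin that acts as a repressor, was lowest, at 0.343 ± 0.216 CPM per kb in HET and 0.182 ± 0.0788 CPM per kb in WT. In the order of WT levels, 34 of the 50 neighbouring pairs differed by no more than the larger of their SDs.

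**Figure D2:**
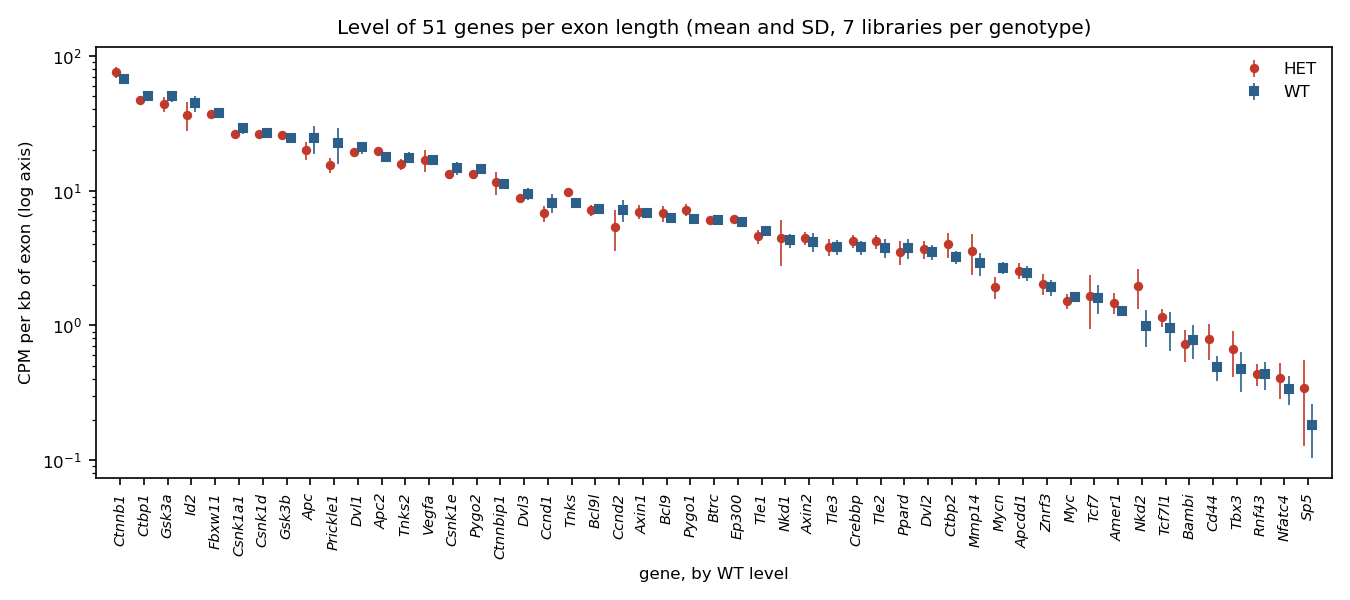
Mean level and SD over 7 libraries of each gene in HET and WT (y axis, CPM per kb of exon, log axis), ordered by the WT level. The order runs from Ctnnb1, at 75.4 in HET and 67.6 in WT, to Sp5, at 0.343 in HET and 0.182 in WT, and HET and WT overlap for most genes.

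In the destruction complex group 1 of 18 genes was higher in HET, none was lower, and 17 did not pass (edgeR, adjusted over all genes tested). The median log2 fold change was -0.01. By unadjusted p under 0.05, 3 were higher and 4 lower, or 38.9% of the 18, beside 22.2% of all genes tested. These genes varied little between libraries, with a median coefficient of variation of 6.72% in HET and 8.39% in WT. Over all genes tested it was 17.6% in HET and 14.8% in WT, and the comparison was not matched for count level.

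Tnks lies on chromosome 8 from 34826460 to 34965690 on the minus strand (GRCm38). It had 151, 146, 136, 163, 145, 134 and 140 CPM in HET 1 to HET 7, against 112, 119, 115, 123, 115, 122 and 130 CPM in WT 1 to WT 7. Every HET library was above every WT library, which was so for 0.432% of all genes tested. The means were 145 ± 9.90 CPM in HET and 119 ± 6.17 CPM in WT (SD over 7 libraries each), a log2 fold change of 0.28 with an interval of 0.17 to 0.39 and an edgeR adjusted p of 0.0352. The direction held in all 22 alternative fits, with log2 fold changes of 0.20 to 0.30, and 9 of the 22 passed the threshold, with adjusted p between 0.00066 and 0.412. HET 4 and HET 1, the 2 libraries lowest in excitatory markers, had the highest Tnks levels of all 14. Without them Tnks had a log2 fold change of 0.23 with an edgeR adjusted p of 0.130. With the marker means of excitatory, striatal and thalamic neurons in the fit it was 0.20 with an edgeR adjusted p of 0.126. Among libraries labelled polyA RNA alone, 3 HET and 7 WT, it was 0.22 with an edgeR adjusted p of 0.412. A tested gene on the opposite strand overlaps Tnks, and it averaged 0.256 CPM in HET and 0.286 CPM in WT.

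Tnks2, the second tankyrase, had the opposite sign. It had 156, 156, 174, 134, 186, 169 and 166 CPM in HET 1 to HET 7, against 195, 196, 208, 162, 177, 172 and 168 CPM in WT 1 to WT 7. Groups overlapped, 3 HET libraries lay below all WT, and the log2 fold change was -0.16 with an edgeR adjusted p of 0.216. HET 4 had the lowest Tnks2 level of HET and WT 4 the lowest of WT, and with the marker means in the fit the log2 fold change was -0.02.

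Ctnnb1 lies on chromosome 9 from 120929216 to 120960507 on the plus strand. It had 393, 380, 355, 463, 364, 424 and 360 CPM in HET 1 to HET 7, against 323, 337, 329, 362, 338, 361 and 407 CPM in WT 1 to WT 7. The groups overlapped, and 2 HET libraries lay above all WT. The means were 391 ± 39.6 CPM in HET and 351 ± 28.8 CPM in WT, a log2 fold change of 0.16 with an edgeR adjusted p of 0.212. With 11040 to 18336 counts per library, counting error was a small part of this spread.

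Of the scaffolds that hold beta-catenin, none passed the test. Axin1 averaged 26.7 ± 3.17 CPM in HET and 26.0 ± 2.02 CPM in WT, a log2 fold change of 0.04 with an edgeR adjusted p of 0.794. Axin2, a scaffold that beta-catenin itself induces and that is often read as a gauge of pathway activity, had 22.3, 27.7, 21.0, 27.2, 24.0, 22.5 and 27.0 CPM in HET 1 to HET 7, against 26.6, 27.0, 26.5, 17.9, 21.4, 21.9 and 19.7 CPM in WT 1 to WT 7. The Axin2 groups overlapped over most of their range, the log2 fold change was 0.09 with an interval of -0.12 to 0.31, and the edgeR adjusted p was 0.625. Apc had 254, 328, 315, 265, 374, 373 and 327 CPM in HET 1 to HET 7, against 413, 560, 407, 244, 350, 389 and 383 CPM in WT 1 to WT 7. The lowest Apc values of their genotypes were in HET 1 and WT 4, with HET 4 next to HET 1, and these are also the libraries lowest in excitatory markers. The Apc log2 fold change was -0.30 with an edgeR adjusted p of 0.240, and with the marker means in the fit it was 0.0056. The paralog Apc2 had 223, 233, 203, 238, 219, 221 and 212 CPM in HET 1 to HET 7, against 194, 208, 180, 198, 189, 213 and 209 CPM in WT 1 to WT 7. In 5 HET libraries Apc2 was above all WT, but HET 3 and HET 7 lay within the WT range, and the log2 fold change of 0.16 had an edgeR adjusted p of 0.113. Where they overlap, reads of Apc2 cannot be told by strand from those of 2310011J03Rik, and that gene was lower in HET, at 21.5 CPM beside 27.6 CPM in WT, with an edgeR adjusted p of 0.0398. Amer1 had a log2 fold change of 0.22 with an edgeR adjusted p of 0.239.

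The 5 kinases of the group did not pass the test, and 4 had a log2 fold change below 0. Gsk3a had 110, 122, 127, 115, 132, 158 and 123 CPM in HET 1 to HET 7, against 164, 155, 146, 119, 141, 144 and 144 CPM in WT 1 to WT 7. Its 3 lowest values over all libraries were in HET 1, HET 4 and WT 4. Gsk3a had a log2 fold change of -0.19 with an edgeR adjusted p of 0.182, and it was -0.04 with the marker means in the fit. Its paralog Gsk3b had 246, 255, 247, 257, 275, 253 and 250 CPM in HET 1 to HET 7, against 261, 265, 254, 226, 224, 230 and 218 CPM in WT 1 to WT 7. The Gsk3b groups overlapped, and the log2 fold change of 0.09 had an edgeR adjusted p of 0.370. The casein kinases Csnk1a1, which primes beta-catenin for Gsk3, and Csnk1e had log2 fold changes of -0.14 and -0.16, with edgeR adjusted p of 0.20 and 0.188. Csnk1e averaged 86.7 ± 5.48 CPM in HET and 97.0 ± 10.6 CPM in WT. Csnk1d stood at -0.03 on the same scale.

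The remaining members of the group did not pass the test. Btrc and Fbxw11, the receptor subunits of the ubiquitin ligase that binds phosphorylated beta-catenin, had log2 fold changes of 0.00 and -0.03 with edgeR adjusted p of 0.972 and 0.764. The interval for Btrc was -0.10 to 0.11. The Dishevelled genes Dvl1, Dvl2 and Dvl3 had log2 fold changes of -0.12, 0.06 and -0.10, with edgeR adjusted p of 0.266, 0.766 and 0.417.

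**Figure D3:**
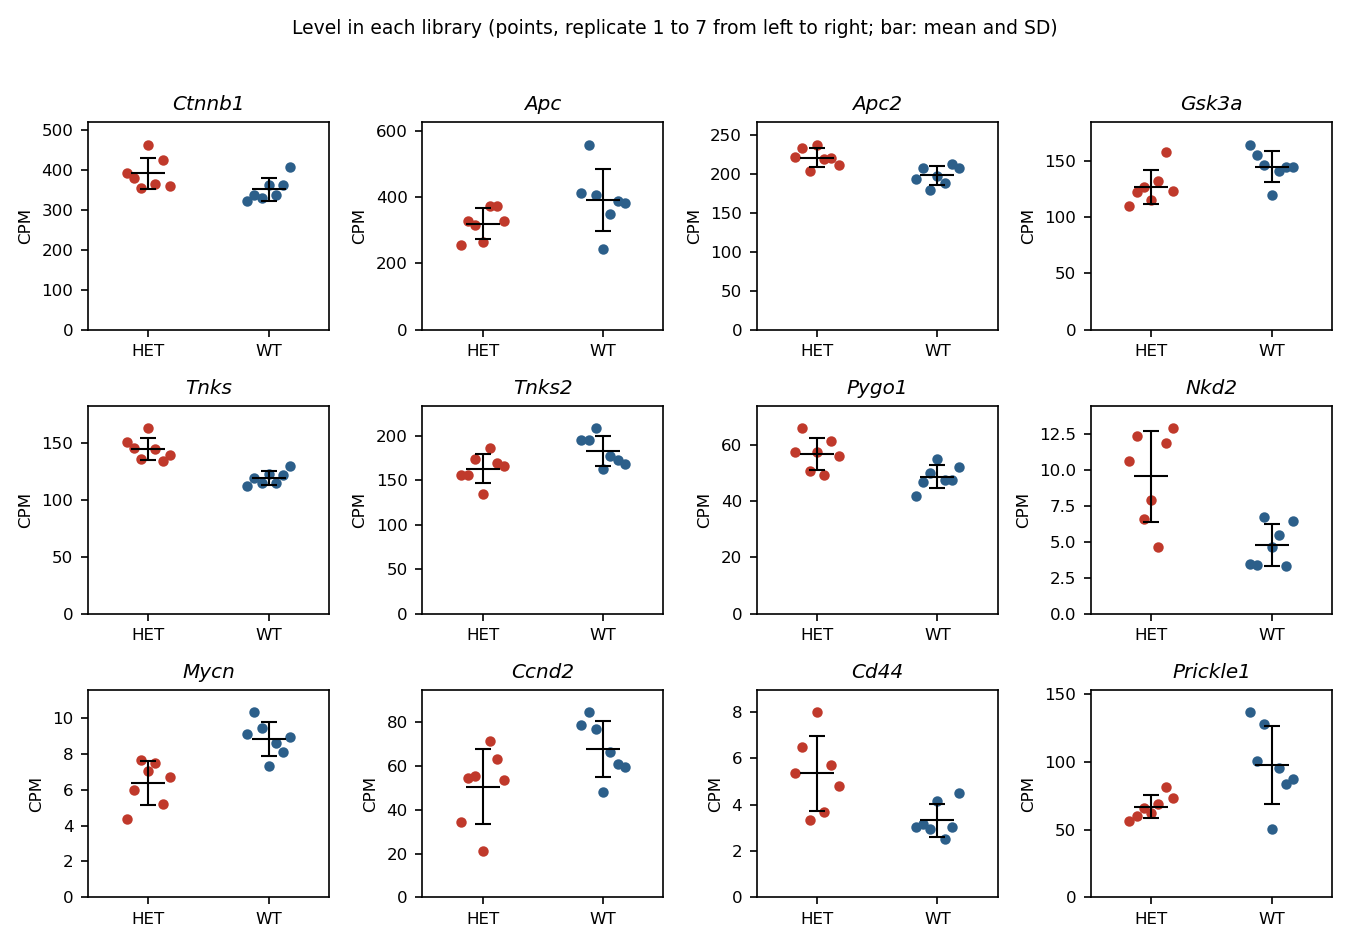
Level of 12 of the genes in each library (y axis, CPM, starting at 0), with HET left of WT, replicates 1 to 7 from left to right in each group, and the mean with its SD as a bar. Every HET point lies above every WT point for Tnks and for no other gene shown; in Apc, Ccnd2 and Prickle1 the fourth WT point is the lowest of WT.

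None of the 14 nuclear cofactors passed the test with edgeR or with DESeq2. By unadjusted p under 0.05, 2 were higher and none was lower in HET, or 14.3%, beside 22.2% of all genes tested. The median log2 fold change was 0.07, and the values lay between -0.14 and 0.32. The median coefficient of variation was 11.8% in HET and 8.49% in WT.

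Pygo1, a reader of methylated histone tails that joins beta-catenin through Bcl9, lies on chromosome 9 from 72925645 to 72952181 on the plus strand. It had 57.6, 65.9, 50.8, 57.4, 49.3, 61.3 and 55.9 CPM in HET 1 to HET 7, against 41.9, 46.9, 49.9, 55.0, 47.4, 47.6 and 52.0 CPM in WT 1 to WT 7. In 5 HET libraries Pygo1 was above all WT, and the 2 others lay within the WT range. Its log2 fold change was 0.23 with an edgeR adjusted p of 0.10. It passed the test when WT 4 was left out, with an edgeR adjusted p of 0.0395, and over the 22 alternatives the adjusted p ran from 0.0395 to 0.544. Pygo2, its paralog, had a log2 fold change of -0.11 with an edgeR adjusted p of 0.234.

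Ctbp2, a corepressor that joins TCF complexes, had 33.9, 24.7, 23.0, 28.1, 20.3, 18.7 and 25.2 CPM in HET 1 to HET 7, against 16.8, 18.4, 19.98, 22.6, 19.8, 23.1 and 19.1 CPM in WT 1 to WT 7. The 2 highest values were in HET 1 and HET 4, and HET 3, HET 5 and HET 6 lay within the WT range. The log2 fold change was 0.32 with an edgeR adjusted p of 0.142, and 0.09 with the marker means in the fit. Ctbp1 had a log2 fold change of -0.08 with an edgeR adjusted p of 0.259.

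The histone acetyltransferases Crebbp and Ep300, which beta-catenin recruits, had log2 fold changes of 0.15 and 0.09 with edgeR adjusted p of 0.304 and 0.257. Ep300 averaged 88.1 ± 3.91 CPM in HET and 82.9 ± 3.80 CPM in WT, and 3 HET libraries lay above all WT. Bcl9 and Bcl9l, the bridges between beta-catenin and the Pygo proteins, had log2 fold changes of 0.11 and -0.05. The Groucho-type corepressors Tle1, Tle2 and Tle3, which hold TCF targets silent, had log2 fold changes of -0.14, 0.16 and 0.00 with edgeR adjusted p of 0.302, 0.391 and 0.994. Tcf7 and Tcf7l1, the DNA-binding partners of beta-catenin in the list, had log2 fold changes of 0.05 and 0.27 with edgeR adjusted p of 0.931 and 0.396. Tcf7 varied widely, from 2.75 CPM in HET 4 to 9.09 CPM in HET 5 and between 3.10 and 6.44 CPM in WT. Ctnnbip1, which blocks beta-catenin from TCF, averaged 32.3 ± 6.29 CPM in HET and 31.5 ± 1.94 CPM in WT.

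None of the 19 target genes passed the test with edgeR, whereas DESeq2, which called 7.42% of all genes, called 4 of them, Nkd2, Cd44, Mycn and Prickle1. By unadjusted p under 0.05, 3 were higher and 3 lower in HET, or 31.6%, beside 22.2% of all genes tested. The median log2 fold change was 0.02, so the targets had no common direction. They were the most variable group, with a median coefficient of variation of 24.7% in HET and 18.9% in WT, not matched for count level. Summed over the 19 genes, their level came to 467 ± 25.9 CPM in HET and 529 ± 57.0 CPM in WT.

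Of the feedback inhibitors, Nkd2 had the largest log2 fold change of the 51 genes. Nkd2 binds Dishevelled and damps Wnt signalling. It lies on chromosome 13 from 73818534 to 73847631 on the minus strand. It had 10.6, 12.3, 6.59, 7.90, 4.62, 11.8 and 12.9 CPM in HET 1 to HET 7, against 3.46, 3.36, 6.69, 4.64, 5.45, 3.32 and 6.46 CPM in WT 1 to WT 7. In 5 HET libraries Nkd2 was above all WT, whereas HET 3 and HET 5 lay within the WT range. The log2 fold change was 1.00 with an interval of 0.48 to 1.51 and an edgeR adjusted p of 0.0586, and DESeq2 gave an adjusted p of 0.00307. With the marker means in the fit the log2 fold change was 1.03 with an edgeR adjusted p of 0.152, and over the 22 alternatives 4 passed, with adjusted p between 0.00307 and 0.412. Each library held 128 to 558 Nkd2 counts.

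Nkd1, its paralog and a direct beta-catenin target, did not pass. It had 18.3, 20.1, 15.1, 36.8, 17.04, 15.2 and 18.8 CPM in HET 1 to HET 7, against 18.3, 21.4, 16.9, 17.9, 18.5, 19.6 and 23.5 CPM in WT 1 to WT 7. HET 4 stood far above the other HET libraries. Nkd1 had a log2 fold change of 0.05 with an edgeR adjusted p of 0.884, and it was -0.17 without the 2 libraries lowest in excitatory markers, of which HET 4 is one. The membrane ubiquitin ligases Rnf43 and Znrf3, which remove Frizzled receptors, had log2 fold changes of 0.02 and 0.09, Apcdd1, an inhibitor at the membrane, 0.06, and Bambi, a pseudoreceptor, -0.10. Their edgeR adjusted p lay between 0.679 and 0.964.

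Among target transcription factors, Mycn had the smallest p. Mycn drives the division of neural progenitors. It had 4.37, 5.98, 7.65, 7.05, 7.48, 5.21 and 6.72 CPM in HET 1 to HET 7, against 9.10, 10.3, 9.46, 7.33, 8.58, 8.10 and 8.92 CPM in WT 1 to WT 7. In 5 HET libraries Mycn was below all WT, and the lowest WT library was WT 4. Its log2 fold change was -0.47 with an edgeR adjusted p of 0.0683 and a DESeq2 adjusted p of 0.0114, and with the marker means in the fit it was -0.38 with an edgeR adjusted p of 0.309. Over the 22 alternatives 2 passed, with adjusted p between 0.0114 and 0.412. Myc, the textbook target of beta-catenin in gut epithelium, averaged 4.12 ± 0.494 CPM in HET and 4.43 ± 0.352 CPM in WT, a log2 fold change of -0.11 with an edgeR adjusted p of 0.566.

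Sp5 had 0.417, 1.59, 0.994, 0.720, 0.416, 0.261 and 0.646 CPM in HET 1 to HET 7, against 0.465, 0.332, 0.325, 0.711, 0.368, 0.260 and 0.214 CPM in WT 1 to WT 7. The values were 8 to 72 counts per library, the fewest of the 51 genes, and 3 HET libraries lay above all WT. Sp5 had a log2 fold change of 0.91 with an interval of 0.09 to 1.73 and an edgeR adjusted p of 0.184. Among libraries labelled polyA RNA alone it was 0.19, and the 2 highest values were in HET 2 and HET 3, which are labelled total RNA. Id2 had a log2 fold change of -0.28 with an edgeR adjusted p of 0.244, and -0.06 with the marker means in the fit. Tbx3, Nfatc4 and Ppard had log2 fold changes of 0.47, 0.26 and -0.08 with edgeR adjusted p of 0.313, 0.485 and 0.776.

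The other targets code for cell-cycle, adhesion and matrix proteins. Cd44, an adhesion receptor for hyaluronan, had 5.36, 6.46, 3.36, 7.97, 3.69, 5.71 and 4.82 CPM in HET 1 to HET 7, against 3.05, 3.18, 2.93, 4.15, 2.51, 3.01 and 4.49 CPM in WT 1 to WT 7. In 5 HET libraries Cd44 was above all WT, with the highest value in HET 4. The log2 fold change was 0.68 with an edgeR adjusted p of 0.0802 and a DESeq2 adjusted p of 0.0174, and with the marker means in the fit it was 0.40 with an edgeR adjusted p of 0.342. Over the 22 alternatives 2 passed, with adjusted p between 0.0174 and 0.471.

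Prickle1, a planar polarity protein, had 56.3, 60.2, 66.3, 62.0, 68.7, 81.7 and 73.4 CPM in HET 1 to HET 7, against 137, 101, 128, 50.5, 95.1, 83.9 and 87.3 CPM in WT 1 to WT 7. All HET libraries lay below 6 of the WT libraries and above WT 4, which is the WT library lowest in excitatory markers. Prickle1 had a log2 fold change of -0.54 with an edgeR adjusted p of 0.10. It was -0.65 with an edgeR adjusted p of 0.0097 without WT 4, and -0.17 with an edgeR adjusted p of 0.583 with the marker means in the fit. Over the 22 alternatives 2 passed, with adjusted p between 0.0097 and 0.625.

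Ccnd1, the D-type cyclin often used as a Wnt target, had 37.1, 37.5, 26.9, 26.8, 31.4, 34.1 and 29.2 CPM in HET 1 to HET 7, against 43.3, 47.7, 29.9, 31.1, 37.8, 38.6 and 39.4 CPM in WT 1 to WT 7. The Ccnd1 groups overlapped, 3 HET libraries lay below all WT, and the log2 fold change of -0.26 had an edgeR adjusted p of 0.181. Ccnd2, the second D-type cyclin, had 34.4, 54.5, 55.2, 21.2, 71.5, 63.1 and 53.4 CPM in HET 1 to HET 7, against 78.9, 84.5, 76.9, 48.1, 66.2, 60.8 and 59.7 CPM in WT 1 to WT 7. The lowest values were in HET 4, HET 1 and WT 4, the order in which these libraries stand in excitatory markers. The Ccnd2 log2 fold change was -0.43 with an edgeR adjusted p of 0.265, and with the marker means in the fit it was 0.05. Mmp14, a matrix protease, had a log2 fold change of 0.31 and Vegfa, a growth factor for vessels, one of -0.01, with edgeR adjusted p of 0.365 and 0.978.

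**Figure D4:**
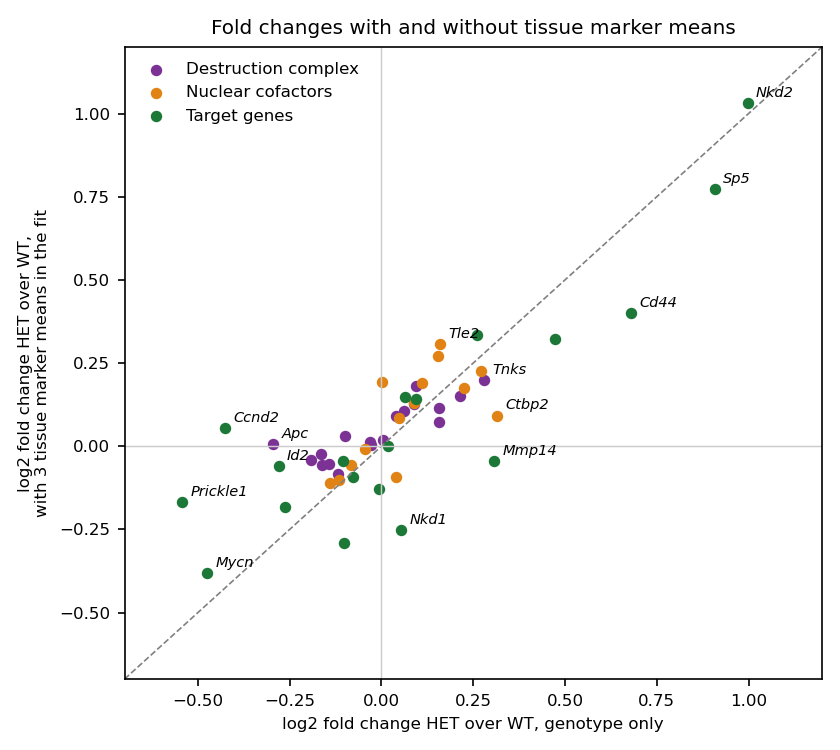
Log2 fold change of HET over WT for the 51 genes from genotype alone (x axis) and with the mean log2 levels of excitatory, striatal and thalamic markers in the fit (y axis), with the line of equality dashed. Apc, Ccnd2, Id2, Prickle1 and Ctbp2 lie nearer 0 on the y axis, whereas Nkd2 stays at 1.03 and Mycn at -0.38.

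The log2 fold changes were also read from a fit that held tissue markers. Of the 17 genes with a log2 fold change of at least 0.2 in size, 15 came nearer 0 when the marker means of excitatory, striatal and thalamic neurons were in the fit, 6 of them to 50% or less of their size with 3 changing sign. The median size over the 17 genes was 0.182 with the marker means and 0.307 without them. These 17 were picked for their size without the markers, so a move towards 0 in another fit is likely in any case. The same count was not made over all genes tested. The marker lists also lean by genotype, as given next, so this fit can take up a part of the genotype difference itself. The excitatory list had a median log2 fold change of -0.98 and the thalamic list one of 1.03. All 8 genes of each list were detected and none passed the edgeR test. By unadjusted p under 0.05, 6 excitatory genes were lower and 2 thalamic genes higher in HET. Over all genes tested, 10.4% were lower and 11.8% higher by the same threshold. DESeq2 called 1 excitatory gene. The part of these markers in the results was not tested beyond these fits.

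The remainder of the pathway was followed through 82 further genes, of which 76 were tested. They include 25 ligands, 18 receptors, 15 antagonists and 24 cytoplasmic or nuclear genes. With edgeR none was higher and 2 were lower in HET, and the median log2 fold change was -0.02. By unadjusted p under 0.05, 11 were higher and 6 lower, or 22.4%, beside 22.2% of all genes tested. DESeq2 called 5 as higher and 4 as lower, beside 7.42% of all the genes it tested. The 2 were Wnt10a, a ligand, and Csnk1g2, a membrane-bound casein kinase that phosphorylates the Wnt coreceptor. Wnt10a had 1.77, 2.98, 5.43, 2.01, 5.20, 4.30 and 3.35 CPM in HET 1 to HET 7, against 19.0, 15.1, 17.8, 2.73, 11.2, 10.6 and 6.92 CPM in WT 1 to WT 7. Wnt10a groups were apart except for WT 4, and the log2 fold change was -1.73 with an edgeR adjusted p of 0.0482. Csnk1g2 had 136, 139, 146, 145, 154, 150 and 149 CPM in HET 1 to HET 7, against 196, 205, 186, 141, 181, 180 and 182 CPM in WT 1 to WT 7. WT 4 again lay within the HET range, and the log2 fold change was -0.32 with an edgeR adjusted p of 0.0472. Neither passed with the marker means in the fit, nor when any of 11 of the 14 libraries was left out, the exceptions being HET 5, HET 6 and WT 4. Among receptors and antagonists the smallest p belonged to Fzd1, at a log2 fold change of 0.63 with an edgeR adjusted p of 0.0798, and to Dkk3, at -1.36 with an edgeR adjusted p of 0.0864.

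Chromatin at the gene starts was compared through ATAC-seq peaks, which mark stretches that a transposase could enter. The HET list held 30862 peaks with a median width of 423 bases and the WT list 19272 peaks with a median width of 490 bases. Each list seems from its name to combine the libraries of a genotype, and the lists carry no height or depth, so a peak in 1 list alone has no replicate check. A gene was counted when a peak overlapped the 1000 bases on either side of its annotated start. Of the 51 genes, 1 had a peak in the HET list only, 1 in the WT list only, 34 in both and 15 in neither. Over all genes tested the shares were 8.08% HET only, 1.62% WT only, 55.6% both and 34.7% neither, so that 63.6% had a peak in the HET list and 57.2% in the WT list. The destruction complex had peaks in both lists at 16 of 18 genes, the cofactors at 9 of 14 and the targets at 9 of 19. Tnks had a peak of 431 bases in HET and 466 bases in WT, both centred 12 bases inside the gene. The 9 targets with no promoter peak in either list were Nkd2, Rnf43, Sp5, Tbx3, Nfatc4, Ccnd1, Ccnd2, Cd44 and Mmp14. Ctnnb1 had no peak at its outermost annotated start but had one in both lists at its RefSeq start. Axin1 and Axin2 had one in both lists at the outermost start and none at the start of the RefSeq gene entry used, 1 per gene. A RefSeq promoter of Axin2 at chr11:108920099-108920398, however, overlapped 1 peak in each list. By 1 RefSeq entry per gene the destruction complex had peaks in both lists at 15 of 18 genes, and the counts of the other groups were the same. Widths were also summed over all peaks at a gene start in each list. Among the 34 genes with peaks in both lists this sum was larger in HET at 23 and in WT at 11. Over all genes with both it was larger in HET at 63.3%.

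**Figure D5:**
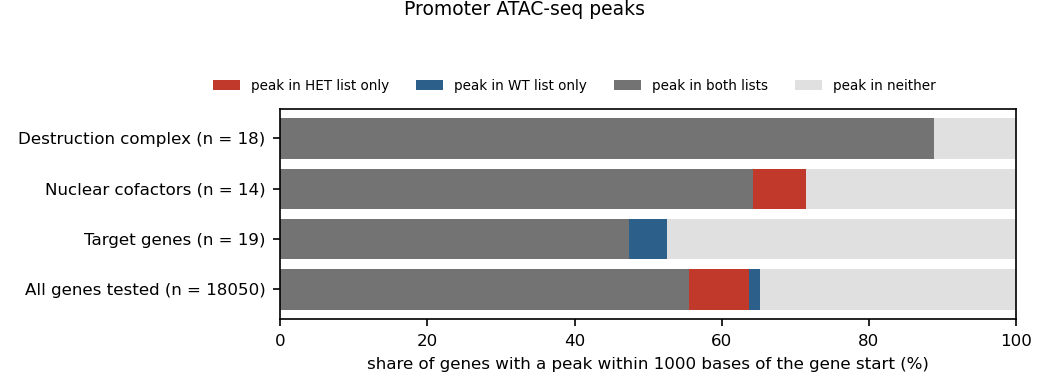
Share of genes (x axis, percent) with an ATAC-seq peak within 1000 bases of the gene start in the HET list only, the WT list only, both lists or neither, for the 3 groups and for all 18050 genes tested. The destruction complex has both at 88.9% and the targets at 47.4%, beside 55.6% of all genes.

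By the window at the annotated start, Pygo1 was the gene with a promoter peak in the HET list only. The peak covers chr9:72925256-72925553, is 298 bases wide and is centred 240 bases before the gene start. When the HET list was reduced to its widest peaks, as many as the WT list holds, this peak was no longer in it. The sequence is shown because it is where the peak lists differ at a nuclear cofactor by this window. It is the RefSeq promoter on GRCm38.p6, chr9:72925395-72925694, plus strand, with the 159 bases that lie under the HET peak in capitals; it holds 48 CG pairs.
Pygo1: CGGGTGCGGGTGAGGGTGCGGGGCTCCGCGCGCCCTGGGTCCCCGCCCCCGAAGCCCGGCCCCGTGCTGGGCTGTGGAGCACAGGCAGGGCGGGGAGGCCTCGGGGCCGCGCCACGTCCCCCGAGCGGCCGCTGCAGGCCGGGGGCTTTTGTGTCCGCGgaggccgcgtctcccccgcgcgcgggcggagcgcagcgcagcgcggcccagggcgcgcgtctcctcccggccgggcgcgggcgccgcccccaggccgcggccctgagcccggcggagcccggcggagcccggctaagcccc

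Nkd1 was the gene with a promoter peak in the WT list only, at chr8:88521015-88521645, 631 bases wide and centred 24 bases before the gene start. Its RNA averaged 20.2 ± 7.57 CPM in HET and 19.4 ± 2.29 CPM in WT. For Apc2 the peak was 176 bases wide in HET and 522 bases wide in WT, and with the shortened HET list Apc2 became a gene with a peak in WT only.

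TCF factors bind a core that is written CTTTGA here and was sought on both strands, where the other strand reads TCAAAG. RefSeq promoters of 300 bases, from 250 before to 50 after a gene start, were found for 36 of the 51 genes. These 36 genes have 51 promoters, of which 6, or 11.8%, held the core, beside 16% of all 32851 RefSeq promoters. The genes with the core were Sp5, Mycn, Ppard, Gsk3a, Gsk3b and Ctbp2. Of the 12 target genes with a promoter 3 held it, and the promoters of these 3 are shown because they are the targets in which the letters occur. The core is in capitals; Sp5 carries it at 204 and 104 bases before the gene start, the nearer one as the longer form CTTTGAT, which 3.73% of RefSeq promoters hold. Mycn carries it 13 bases and Ppard 146 bases before the start, both on the other strand. In Mycn the match is also part of the longer form CTTTGAA, which 5.14% of RefSeq promoters hold and which Gsk3a carries too. All are RefSeq sequences on GRCm38.p6, at chr2:70474673-70474972 (plus strand) for Sp5, chr12:12941787-12942086 (minus strand) for Mycn and chr17:28232504-28232803 (plus strand) for Ppard.
Sp5: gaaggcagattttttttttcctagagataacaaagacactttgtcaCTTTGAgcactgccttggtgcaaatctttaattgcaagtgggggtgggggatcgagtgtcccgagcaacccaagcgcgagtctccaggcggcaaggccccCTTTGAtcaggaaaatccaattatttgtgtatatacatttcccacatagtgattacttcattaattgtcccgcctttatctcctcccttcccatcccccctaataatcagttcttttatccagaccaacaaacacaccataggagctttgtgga
Mycn: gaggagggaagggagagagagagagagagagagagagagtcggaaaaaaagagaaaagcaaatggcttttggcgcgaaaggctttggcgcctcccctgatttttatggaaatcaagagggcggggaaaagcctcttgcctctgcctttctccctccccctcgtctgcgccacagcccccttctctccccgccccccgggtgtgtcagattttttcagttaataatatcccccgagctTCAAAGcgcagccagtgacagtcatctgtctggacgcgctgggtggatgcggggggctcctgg
Ppard: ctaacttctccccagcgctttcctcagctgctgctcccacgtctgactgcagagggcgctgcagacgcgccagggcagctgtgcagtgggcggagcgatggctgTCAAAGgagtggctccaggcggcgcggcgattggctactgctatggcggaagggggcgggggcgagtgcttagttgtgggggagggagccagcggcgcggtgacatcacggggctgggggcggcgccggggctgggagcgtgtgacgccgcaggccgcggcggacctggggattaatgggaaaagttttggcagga

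The 3 promoters differ in the data that stand beside them. Sp5 had no peak in either list and a log2 fold change of 0.91 that did not pass the test. Mycn had 2 peaks in each list within the window, and its log2 fold change was -0.47. Ppard had a peak of 687 bases in HET and 740 bases in WT, and its RNA averaged 26.5 ± 5.35 CPM in HET and 28.0 ± 4.65 CPM in WT. A match to these letters is a description of the sequence and does not show binding.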

How the data were processed

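RNA was taken from the frontal cortex of 7 HET and 7 WT mice, poly-A selected, primed at random and sequenced as paired reads of 150 bases, per the labels' protocols. The authors deposited raw counts per gene, 1 table per library; featureCounts 2.0.1 counted exons by gene ID against Ensembl GRCm38 release 102 with strand ignored (setting 0), per the file headers. The submitters' processing notes also name STAR, Trimmomatic and DESeq2, with no version. Strand was ignored, so reads of 14 of the 51 genes could include reads of a tested gene on the other strand.

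Genes were kept by edgeR's filterByExpr (18050 of 55487), normalised by TMM, and compared in edgeR 4.0.16 under R 4.3.3 (quasi-likelihood, robust, genotype alone, two-sided), and p-values were adjusted by Benjamini-Hochberg over the 18050 genes and called under 0.05. The common biological coefficient of variation came to 0.248. Errors are SD over 7 libraries. The p-values set the difference between genotypes against the spread between these libraries. No pair of libraries looked like copies (chi-square per degree of freedom at least 7.47 over 91 pairs). On simulated data, for HET vs WT with 18050 genes, 7 of 50 genes changed 1.25 times, 16 of 50 changed 1.5 times, 37 of 50 changed 2 times and 46 of 50 changed 4 times were called, with 5 false calls. Each gene was drawn on its own, with no tissue makeup shared between genes and no difference in RNA label. These rates therefore may not hold for the real libraries.

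The 2 deposited peak lists give positions on mm10, the assembly also named GRCm38, from a group of 8 ATAC-seq samples (3 HET, 3 WT, 1 PAT, 1 Control); Bowtie2 2.4.4, SAMtools 1.9 and MACS3 were named per the submitters' processing notes, and no caller settings are stated there. An overlap of 1 base counted. The 4 Hi-C samples and the PAT and Control samples were not analysed here. Promoter sequences came from RefSeq.

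Tried as alternatives were a DESeq2 1.42.0 fit, edgeR with DESeq2's size factors, fits with no low-count filter or with at least 1 CPM required in 7 libraries, a replicate block, the marker means as covariates, the libraries labelled polyA RNA alone and each library left out. For peaks they were windows of 500 and 2500 bases, a stricter overlap and the widest HET peaks in equal number. The fit without the 2 libraries lowest in excitatory markers and the RefSeq gene starts were added after seeing the data. The 51 genes, the lists and the alternatives were chosen with earlier results of these data known. Named were all called genes, the 6 smallest p of each group, 9 core genes fixed by name, the highest and lowest gene of each group per exon length, genes with a promoter peak in 1 list only, and of the other pathway genes those called and the smallest p of each role; the remaining genes are given in brief for completeness.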

Additional observations from a re-analysis of the deposited data

Results flagged for a closer look

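Each of the 51 genes was examined in HET and in WT. In 10 of these groups of 7 libraries, the highest or lowest library lay farther from its nearest neighbour, relative to the whole range, than the 95% limit of Dixon's test; chance gives about 1 in 20 such groups. In HET 4, the library lowest in excitatory and highest in thalamic markers, Nkd1 stood at 36.8 CPM with the other HET libraries between 15.1 and 20.1 CPM, and Ctnnbip1 at 44.9 CPM with the others between 26.7 and 34.1 CPM. In HET 6, the HET library highest in excitatory markers, Csnk1e stood at 97.7 CPM with the others between 79.5 and 87.2 CPM, Ctbp1 at 225 CPM with the others between 204 and 212 CPM, and Vegfa at 45.9 CPM with the others between 69.5 and 86.6 CPM. In HET 5, the HET library highest in striatal markers, Gsk3b stood at 275 CPM with the others between 246 and 257 CPM, and Btrc at 111 CPM with the others between 96.4 and 101.7 CPM. In WT, Dvl3 stood at 48.0 CPM in WT 4 with the others between 58.8 and 66.4 CPM, Bcl9 at 59.5 CPM in WT 1 with the others between 49.2 and 53.2 CPM, and Vegfa at 59.2 CPM in WT 7 with the others between 71.0 and 78.0 CPM. The part of the markers in these values was not tested.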

How the results depend on the processing

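The single call among the 51 genes depended on the settings. Over all genes, 175 calls stood beside 1403 with DESeq2, 106 with no filter, 10 with the replicate block, 16 with the marker means, 4 among libraries labelled polyA RNA, 13 without the 2 libraries lowest in excitatory markers, and 11 to 1672 with each library left out. Among the 51 genes the count was 5 with DESeq2, 0 with the replicate block, the marker means, the polyA label alone or without the 2 libraries, and 0 to 7 with each library left out. Tnks was called without HET 3, HET 5, HET 6, WT 4 or WT 7 and not without HET 1, HET 2, HET 4, HET 7, WT 1, WT 2, WT 3, WT 5 or WT 6. Leaving out HET 5 added Nkd2, HET 6 added Gsk3a and Nkd2, and WT 4 added Cd44, Csnk1e, Mycn, Nkd2, Prickle1 and Pygo1. Among the other pathway genes the count was 2, with 9 by DESeq2, 1 with no filter, 0 with the block, the marker means, the polyA label alone or without the 2 libraries, and 0 to 8 with each library left out. The replicate numbers showed no clear pairing in the RNA. Same-numbered libraries correlated above 0.1 in 2 of 7 pairs (-0.28 to 0.33), and 1 HET library correlated best with its own number. Tissue markers vary widely between libraries, so this check could miss a pairing by litter and cannot exclude one. The cause of these shifts was not tested.

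The sign of the log2 fold change turned for 8 genes with the marker means (Apc 0.0056, Csnk1d 0.0036, Fbxw11 0.012, Dvl3 0.031, Ctnnbip1 -0.091, Nkd1 -0.25, Ccnd2 0.054, Mmp14 -0.044) and for 6 with the polyA label alone (Csnk1d 0.0089, Bcl9l 0.014, Ctnnbip1 -0.10, Nkd1 -0.20, Rnf43 -0.025, Mmp14 -0.13). It turned for 4 without the 2 libraries (Bcl9l 0.0036, Ctnnbip1 -0.068, Nkd1 -0.17, Rnf43 -0.054), for Tcf7 (-0.012) and Nkd1 (-0.0071) with the block, for Btrc (-0.0027) and Tle3 (-0.0054) with DESeq2, for Btrc (-0.0012) and Tle3 (-0.0040) with its size factors, and for Tle3 (-0.00142) with no filter. With each library left out the log2 fold change spanned 0 for Axin1 (-0.014 to 0.072), Btrc (-0.020 to 0.025), Tcf7 (-0.16 to 0.15), Tle3 (-0.063 to 0.059), Ctnnbip1 (-0.058 to 0.080), Nkd1 (-0.16 to 0.11), Rnf43 (-0.046 to 0.10) and Vegfa (-0.055 to 0.078). None of these genes passed the test in the fit with all libraries. Sp5 had too few counts for the filter of 1 CPM in 7 libraries.

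Promoter peaks in the HET list only numbered 0 and in the WT list only 2 (Nkd1 and Apc2) with the widest HET peaks in equal number, and the WT list alone had 2 (Nkd1 and Ccnd2) with 2500 bases on either side; the cause was not tested.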

Other observations

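Pairs of paralogs within the pathway were compared inside each library, as the ratio of their counts per exon length, which does not depend on the scaling between libraries. The 15 pairs were chosen with the values of their members known, so these ratios are a description with no test. The ratio of Tnks to Tnks2 was 0.545 to 0.849 in HET and 0.385 to 0.540 in WT. Every HET library was above every WT library, as for the level of Tnks itself. How often other gene pairs are set apart in this way was not computed. The ratio of Gsk3b to Gsk3a, kinases that both phosphorylate beta-catenin, had a median of 0.615 in HET and 0.471 in WT, with 6 of 7 HET libraries above all WT. The ratio of Nkd2 to Nkd1 had a median of 0.546 in HET and 0.245 in WT, and that of Ctbp2 to Ctbp1 0.0870 in HET and 0.0633 in WT, each with 5 HET libraries above all WT. Pygo1 to Pygo2 had a median of 0.523 in HET and 0.423 in WT, with 4 HET libraries above all WT. For Mycn to Myc the median was 1.44 in HET and 1.59 in WT, with 3 HET libraries below all WT. All pairs but Tnks and Tnks2 overlapped between the genotypes. Among them were Dvl1 and Dvl3, at a median of 2.18 in HET and 2.19 in WT, and Crebbp and Ep300, at 0.668 in HET and 0.658 in WT. With the marker means in the fit, log2 fold changes went from 0.28 to 0.20 for Tnks and -0.16 to -0.02 for Tnks2. They went from 0.09 to 0.13 for Gsk3b, -0.19 to -0.04 for Gsk3a, 0.32 to 0.09 for Ctbp2 and -0.08 to -0.06 for Ctbp1. Nkd2 went from 1.00 to 1.03 and Nkd1 from 0.05 to -0.25. The part of tissue makeup in the ratios themselves was not tested.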
